A study of Mus musculus with 10 samples.

Results

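The data compared are RNA from polysomes of mouse neural stem cells carrying a Lin28a lentivirus with RNA from polysomes of mock control cells, both at passage 3. Values of the 2 libraries were joined on gene symbol. A gene was compared where it reached an RPKM (reads scaled to transcript length and library size) of 1 in at least 1 of them. This held for 12289 of the 17919 genes listed, and the other 5630 were below 1 RPKM in both. A gene low in 1 library thus entered through the library where it was higher, which held for 39 of the 117 genes that were higher with Lin28a past 2-fold.

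Embryos of ICR mice gave the cells, taken at embryonic day 10 from the ventral midbrain and passaged every 4 days. The series holds 10 libraries, of which 2 are of polysome RNA, 4 of RNA-seq and 4 of small RNA. Each group was 1 library: Lin28a polysomes and control polysomes at passage 3, Lin28a and control RNA-seq at passage 3 and at passage 1, and Lin28a and control small RNA at passage 3. All of the cells had been infected with a lentivirus, with Lin28a or as a mock control. The labels do not name the promoter that drives Lin28a, the share of infected cells or the fractions of the gradient used. With 1 library per group no test was possible, so nothing below was checked in replicates and no SD or p-value is given. Every difference describes these 2 libraries.

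Lin28a binds RNA and is made in early embryos and stem cells. It holds the precursors of let-7 microRNAs and blocks their maturation, and it also binds many messenger RNAs, some of which have been reported to be translated more with it. The let-7 microRNAs accumulate as progenitors mature, and they repress messenger RNAs that carry sites matching their seed. A polysome is a messenger RNA with several ribosomes on it. The polysome level of a messenger RNA thus mixes how much of it the cells hold and how much is being translated. The libraries also held RNAs that code for no protein, such as the enzyme RNA Rmrp, the nuclear RNA Malat1 and the non-coding RNA Rmst. RNA that is not being translated may therefore be a further part. These parts cannot be told apart in the ratios below from the polysome libraries alone. Likewise, in RNA from whole cultures, fewer cells of a type and less RNA per cell cannot be told apart.

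The let-7 family is shown first because its seed defines the best known targets of this pathway. Counts of the mature guide strands were taken from the passage 3 small RNA libraries, which held 8542827 microRNA counts for Lin28a and 8288085 for control. The sequences below are from RefSeq (GRCm38.p6), 5′ to 3′, with bases 2 to 8, the seed, in capitals. All 9 guide strands shared the seed GAGGUAG.
let-7a-5p: uGAGGUAGuagguuguauaguu
let-7b-5p: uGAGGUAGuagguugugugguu
let-7c-5p: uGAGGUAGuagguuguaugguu
let-7d-5p: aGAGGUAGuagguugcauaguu
let-7e-5p: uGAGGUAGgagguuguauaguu
let-7f-5p: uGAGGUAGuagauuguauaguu
let-7g-5p: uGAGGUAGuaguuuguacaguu
let-7i-5p: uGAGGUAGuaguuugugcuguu
miR-98-5p: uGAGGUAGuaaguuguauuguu

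Scaled to all microRNA counts of the library (CPM), the 9 strands summed to 29657 CPM with Lin28a and 125388 CPM in control. All 9 were lower with Lin28a. The ratio of CPM, Lin28a over control, was lowest for miR-98-5p at 0.0970 (95% exact interval of the counts 0.0934 to 0.101). It was highest for let-7c-5p at 0.509 (0.506 to 0.512), and for let-7a-5p it was 0.135. These intervals cover counting error only, and reads of a microRNA with more than 1 locus may be counted repeatedly. The small RNA libraries are other libraries than the polysome ones, and it is not stated whether the same cells were used.

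The Lin28a transcript (NM_145833) matched the labels. It was at 17.9 RPKM in Lin28a polysomes and listed at the floor of the file, 0.00204 RPKM, in control polysomes, so no fold is given. RNA-seq at passage 3 had it at 104 FPKM (fragments scaled in the same way) with Lin28a and 0.06201 FPKM in control. Its paralog Lin28b, which also blocks let-7 maturation, stayed low at 0.515 RPKM in Lin28a polysomes and 0.5705 RPKM in control polysomes. Stem cell markers were high in both polysome libraries, among them the radial glial gene Fabp7 (1067 RPKM with Lin28a, 936 RPKM in control), Sox2 (94.4 RPKM with Lin28a, 96.5 RPKM in control) and vimentin, Vim (622 RPKM with Lin28a, 833 RPKM in control). The midbrain factor Otx2 was at 42.4 RPKM with Lin28a and 28.7 RPKM in control.

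Differences between the libraries were few and ran mostly one way. Ratios are log2((Lin28a RPKM + 1) / (control RPKM + 1)), a scale that understates the change of low genes, and past 2-fold means a log2 ratio of at least 1 in size. On it 117 genes were higher with Lin28a past 2-fold, 0.952% of those compared, and 15 were lower, 0.122%. By any amount 62.8% of genes were higher and 37.2% lower, with a median log2 ratio of 0.06. The middle 90% of genes lay between -0.37 and 0.52, and 92.4% of genes were within 0.5 of 0. Each count of list members below is to be read against these shares. Most genes named were taken by rules on rank, and further list members, given for contrast, were chosen after their values were seen.

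**Figure D1:**
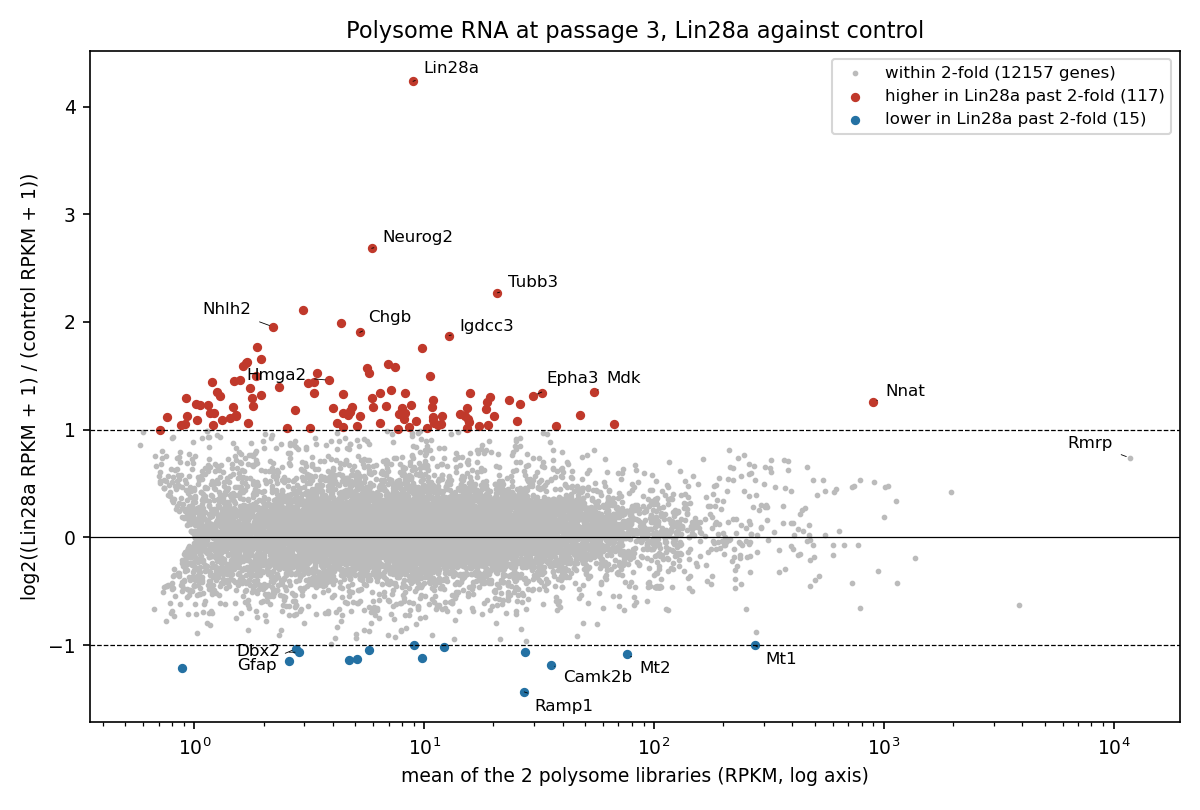
Each point is 1 of the 12289 genes compared: the mean RPKM of the 2 polysome libraries (horizontal, log axis) against the log2 ratio of Lin28a over control (vertical), with dashed lines at 2-fold. The 117 genes higher with Lin28a (red) reach down to the lowest levels, while Nnat and Mdk stand apart at high level, and the 15 lower genes (blue) include Ramp1 and the metallothioneins Mt1 and Mt2.

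The larger ratios were more frequent at low level. Among 1813 genes with a mean of 1 to 3 RPKM, 33 (1.82%) were higher past 2-fold and 3 were lower. Of 4059 genes with a mean of 10 to 30 RPKM, 29 (0.714%) were higher and 3 lower, and of 378 genes above 100 RPKM 1 was higher, Nnat, and 1 lower, Mt1. In control polysomes, 39 of the 117 higher genes were below 1 RPKM, so they were compared only through the Lin28a library, and 63 were below 3 RPKM. Just past the line on the higher side was 2610100L16Rik (1.28 RPKM with Lin28a, 0.138 RPKM in control) and just short of it 1700101E01Rik (1.84 RPKM with Lin28a, 0.427 RPKM in control). On the lower side the small heat shock gene Cryab (2.31 RPKM with Lin28a, 5.57 RPKM in control) was just short of the line. At the filter, Mvp was the gene just inside (0.634 RPKM with Lin28a, 1.0004 RPKM in control) and Gucy1a3 the gene just outside (0.612 RPKM with Lin28a, 0.99999 RPKM in control).

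Proneural and neuronal basic helix-loop-helix (bHLH) factors, which commit progenitors to the neuronal fate, held several of the largest ratios. Of 13 in the files, 6 were compared, and 4 of them were past 2-fold, all higher. As 5 of the 6 were compared only through the Lin28a library, being below 1 RPKM in control, this count is a description and nothing is read from it. Neurog2, the main proneural factor of the ventral midbrain, was at 10.96 RPKM in Lin28a polysomes and 0.8597 RPKM in control polysomes (log2 ratio 2.68). Its 2 values differ 12.7-fold without the pseudocount. Nhlh2 and Nhlh1 are active in newborn neurons. Nhlh2 was at 4.098 RPKM with Lin28a and 0.316 RPKM in control (log2 ratio 1.95), and Nhlh1 at 3.47 RPKM with Lin28a and 0.416 RPKM in control (log2 ratio 1.66). Neurod4 was at 2.1999 RPKM with Lin28a and 0.176 RPKM in control (log2 ratio 1.44), and Neurod1, a differentiation factor below the line, at 1.37 RPKM and 0.245 RPKM, Lin28a and control (log2 ratio 0.93).

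In RNA-seq at passage 3, another pair of libraries, the log2 ratio was 2.52 for Neurog2, 2.23 for Nhlh2 and 1.30 for Nhlh1. At passage 1 the RNA-seq log2 ratios of these 3 genes lay between -0.13 (Nhlh2) and 0.15 (Neurog2). Another 7 members, among them Neurog1, Neurod2 and Atoh1, were below 1 RPKM in both polysome libraries.

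The promoters of the Nhlh genes are shown because both paralogs were among the highest genes and bHLH factors bind E-boxes. They run from 250 bases before to 50 after the first listed start of each gene (RefSeq, GRCm38.p6), and any other start was not searched. Capitals mark 2 forms of E-box, searched on both strands. One form reads CAGATG (on the other strand it is CATCTG) and the other form reads CAGCTG. Nhlh2 lies on the + strand at chr3:102009895-102010194 and Nhlh1 on the - strand at chr1:172057547-172057846.
Nhlh2: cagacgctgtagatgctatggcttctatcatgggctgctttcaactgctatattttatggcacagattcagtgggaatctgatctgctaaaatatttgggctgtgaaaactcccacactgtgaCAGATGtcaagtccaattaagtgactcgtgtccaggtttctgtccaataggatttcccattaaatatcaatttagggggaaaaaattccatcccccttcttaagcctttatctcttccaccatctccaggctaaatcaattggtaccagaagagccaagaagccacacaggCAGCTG
Nhlh1: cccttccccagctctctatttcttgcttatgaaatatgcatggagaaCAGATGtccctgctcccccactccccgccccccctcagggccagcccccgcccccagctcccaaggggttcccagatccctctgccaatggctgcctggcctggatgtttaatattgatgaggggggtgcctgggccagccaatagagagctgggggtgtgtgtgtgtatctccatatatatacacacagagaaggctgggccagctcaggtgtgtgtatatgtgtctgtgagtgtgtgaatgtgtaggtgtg

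Nhlh2 held 2 such E-boxes and Nhlh1 1 in this window, and the windows of Neurog2 and Tubb3 held 0. E-boxes were present in 23.7% of the 9152 promoters available for genes compared, and in 25.3% of the 83 available for genes higher past 2-fold (21 promoters). That share is near the share over all genes, so these letters do not set the higher genes apart, and a match is not a binding site.

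Genes of the neuronal cytoskeleton came next. Of 16 compared, 8 were higher past 2-fold, none was lower past 2-fold, and the median log2 ratio was 0.98. The neuronal tubulin Tubb3 was at 35.1 RPKM in Lin28a polysomes and 6.49 RPKM in control polysomes (log2 ratio 2.27), the highest ratio after Lin28a and Neurog2. Among the stathmins, which bind tubulin dimers, Stmn4 was at 10.96 RPKM with Lin28a and 2.91 RPKM in control (log2 ratio 1.61), and Stmn2 at 16.1 RPKM with Lin28a and 5.03 RPKM in control (log2 ratio 1.502). Doublecortin, Dcx, a microtubule protein of migrating neurons, was at 21.9 RPKM with Lin28a and 8.94 RPKM in control (log2 ratio 1.20). The others past 2-fold were the filament gene Ina (1.30), the collapsin response mediators Dpysl5 (1.18) and Crmp1 (1.12), and Tagln3 (1.08), as log2 ratios. Ina, at 0.614 RPKM in control, was compared only through the Lin28a library.

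Other members stood at higher levels and differed less. The growth cone protein gene Gap43 was at 107 RPKM with Lin28a and 131 RPKM in control (log2 ratio -0.29). Map2, a microtubule protein of dendrites, was at 85.03 RPKM with Lin28a and 82.9 RPKM in control (log2 ratio 0.04), and the kinase gene Dclk1 had a log2 ratio of -0.25. RNA-seq at passage 3 gave Tubb3 a log2 ratio of 2.08, Dcx 1.73 and Gap43 0.09. At passage 1 the median RNA-seq log2 ratio of the 16 genes was -0.25.

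RNA-binding proteins of neurons showed smaller ratios. Of 12 compared, 2 were higher past 2-fold, 11 were higher by any amount, and the median log2 ratio was 0.60. Celf3, a splicing regulator, was at 5.01 RPKM with Lin28a and 1.23 RPKM in control (log2 ratio 1.43). Srrm4, which includes neuronal microexons, was at 2.93 RPKM with Lin28a and 0.686 RPKM in control (log2 ratio 1.22). It was thus compared only through the Lin28a library. The Hu proteins Elavl2, Elavl3 and Elavl4, which stabilise neuronal messages, had log2 ratios of 0.69, 0.72 and 0.71.

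Of 25 neurosecretory and synaptic vesicle genes, 4 were higher past 2-fold, 18 were higher by any amount, and the median log2 ratio was 0.20. The granin Chgb, which packs dense-core granules, was at 8.85 RPKM in Lin28a polysomes and 1.63 RPKM in control polysomes (log2 ratio 1.90). Another granin gene, Scg2, was at 7.01 RPKM with Lin28a and 2.55 RPKM in control (log2 ratio 1.17). The vesicle genes Syt4 (1.46) and Rab3c (1.18) were also past 2-fold on the log2 scale. Syt4, at 0.380 RPKM in control, was compared only through the Lin28a library. Core genes of synaptic release were closer to equal, with log2 ratios of 0.4999 for Snap25, 0.12 for Syt1, 0.13 for Vamp2 and -0.07 for Syn1.

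**Figure D2:**
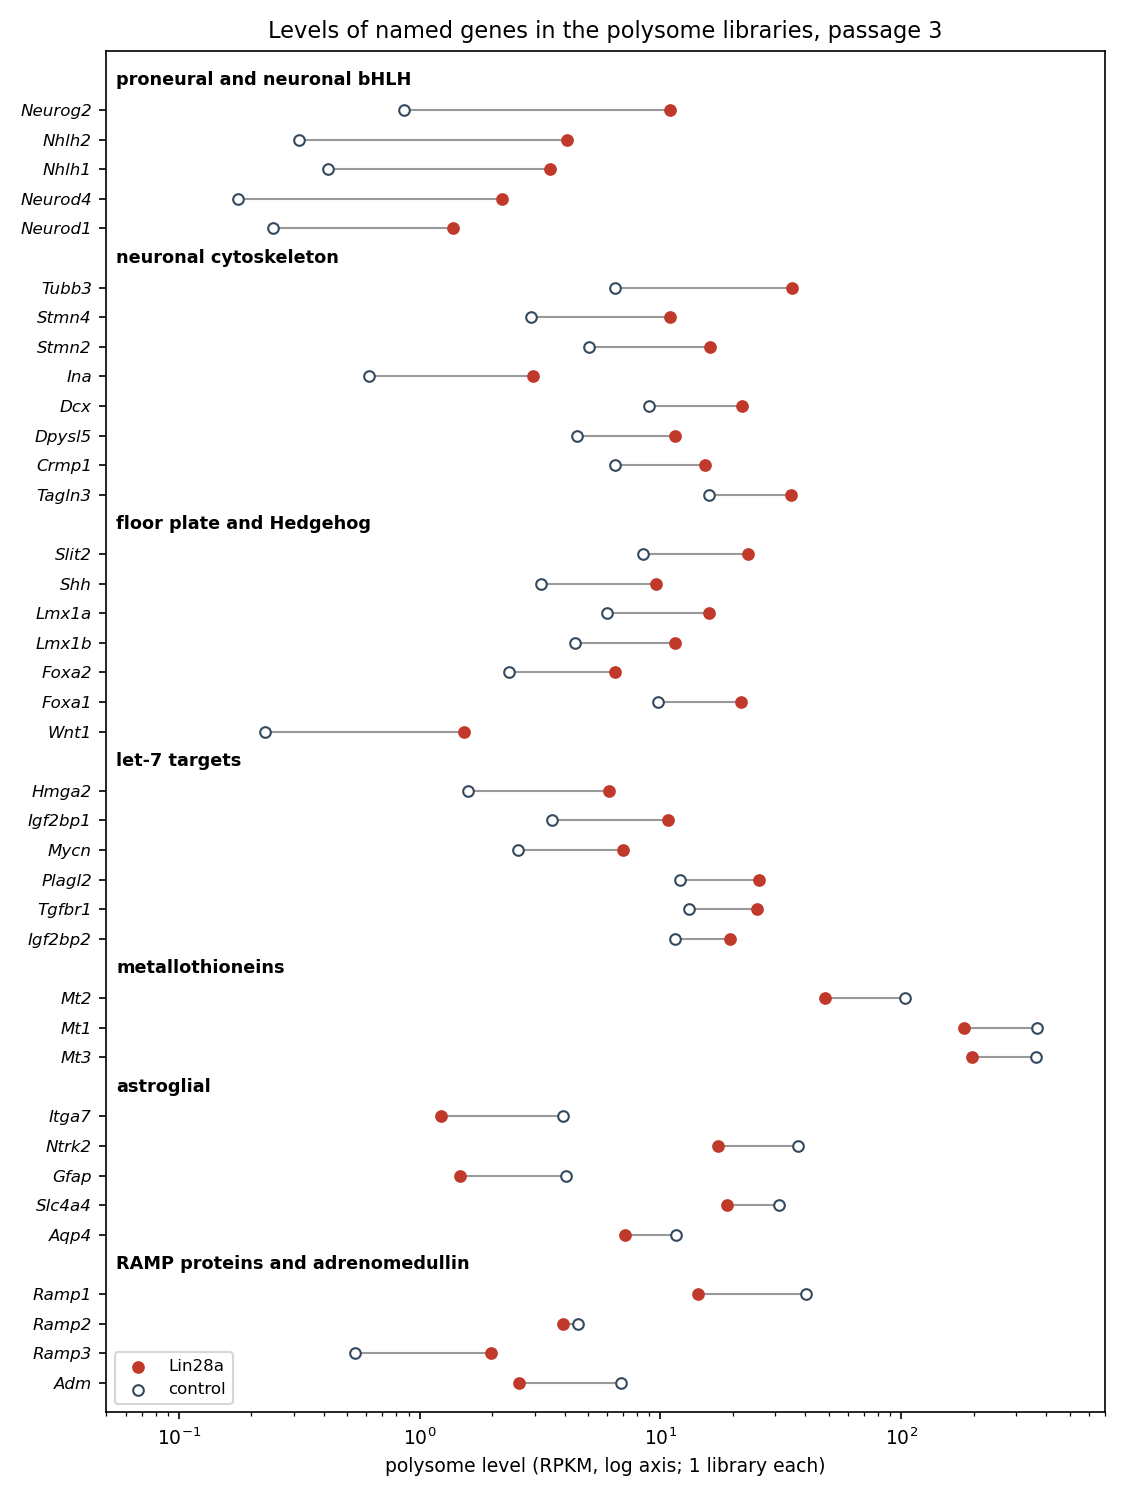
Polysome levels (RPKM, log axis) of named genes, with Lin28a as filled points and control as open points, 1 library each, and a line joining the 2 values of a gene. In the proneural, cytoskeleton, floor plate and let-7 target groups the Lin28a point lies to the right of the control point in every gene drawn, while in the metallothionein and astroglial groups it lies to the left.

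Floor plate genes, which mark the ventral midline of the midbrain from which dopamine neurons arise, were higher with Lin28a in 18 of 20 compared, 7 of them past 2-fold, and the median log2 ratio was 0.76. The secreted ligands came first. Shh, the Hedgehog ligand that patterns the ventral neural tube, was at 9.59 RPKM in Lin28a polysomes and 3.19 RPKM in control polysomes (log2 ratio 1.34). Slit2, a midline repellent of axons, was at 23.1 RPKM with Lin28a and 8.48 RPKM in control (log2 ratio 1.34). Wnt1, needed for the midbrain and its dopamine neurons, was low at 1.53 RPKM with Lin28a and 0.228 RPKM in control (log2 ratio 1.04), and Wnt5a was alike at 14.9 and 15.1 RPKM, Lin28a and control. With that control level, Wnt1 was compared only through the Lin28a library.

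The transcription factors of the floor plate followed. Lmx1a, which specifies dopamine progenitors, was at 15.9 RPKM with Lin28a and 5.98 RPKM in control (log2 ratio 1.28), and its paralog Lmx1b at 11.5 RPKM with Lin28a and 4.43 RPKM in control (log2 ratio 1.20). The forkhead genes Foxa2 and Foxa1, required for the floor plate, had log2 ratios of 1.15 and 1.07. Foxa1 stood at 21.7 RPKM with Lin28a and 9.78 RPKM in control. Short of 2-fold were the midbrain genes En1 (0.92), En2 (0.70) and Otx2 (0.55), as log2 ratios. Spon1, a secreted floor plate protein, was lower, at 16.6 RPKM with Lin28a and 20.6 RPKM in control (log2 ratio -0.29). RNA-seq at passage 3 had a median log2 ratio of 0.59 for the 20 genes and RNA-seq at passage 1 a median of -0.04.

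Genes of mature dopamine neurons were hardly present in either polysome library. Of 14, 9 were below 1 RPKM in both. Tyrosine hydroxylase, Th, which makes dopamine, was at 0.2304 RPKM with Lin28a and 0.0798 RPKM in control, and the dopamine transporter Slc6a3 at 0.0261 RPKM with Lin28a and 0.0339 RPKM in control. Of the 5 compared, 2 were higher past 2-fold: Dlk1, a Notch-related membrane protein gene, at 9.07 RPKM with Lin28a and 2.49 RPKM in control (log2 ratio 1.53), and the forkhead gene Foxp2 at 2.44 RPKM with Lin28a and 0.574 RPKM in control (log2 ratio 1.13). Foxp2 was thus compared only through the Lin28a library. Nr4a2, the orphan nuclear receptor of dopamine neurons, was alike at 3.61 RPKM with Lin28a and 3.18 RPKM in control.

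Along the Hedgehog pathway the ligand had the largest ratio. In this pathway Shh binds patched receptors, which frees Smo to activate the Gli factors. Of 12 genes, 2 were higher past 2-fold, Shh among them, and the median log2 ratio was 0.26. Ptch1, a direct target and negative regulator of the pathway, was at 80.7 RPKM with Lin28a and 64.1 RPKM in control, with a log2 ratio of 0.33. Gli1, also a target, was at 2.87 RPKM with Lin28a and 1.47 RPKM in control (log2 ratio 0.65). The co-receptor genes differed in direction, with log2 ratios of 0.89 for Cdon, 0.42 for Boc and -0.54 for Gas1, while Smo was at 0.09.

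Few Wnt genes differed. Of 7 Wnt ligands compared, Wnt9a (9.06 RPKM with Lin28a and 3.81 RPKM in control, log2 ratio 1.06) and Wnt1 were higher past 2-fold, and the median log2 ratio was 0.05. Wnt1 entered only through the Lin28a library. Of 20 receptors, agonists and antagonists, 2 were past 2-fold, both secreted. The inhibitor Wif1 was at 11.5 RPKM with Lin28a and 4.83 RPKM in control (log2 ratio 1.10), and the R-spondin gene Rspo2, an enhancer of the signal, at 50.5 RPKM with Lin28a and 24.2 RPKM in control (log2 ratio 1.03). Among 9 feedback targets the median log2 ratio was 0.42. Lef1, a nuclear effector of the pathway, led with 12.2 RPKM for Lin28a and 4.21 RPKM for control (log2 ratio 1.35), followed short of 2-fold by Nkd1 (0.74) and Axin2 (0.34).

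Notch and FGF genes held no member past 2-fold. Of 12 Notch ligands and receptors, 7 were higher by any amount with a median log2 ratio of 0.11, led by the glycosyltransferase gene Mfng (32.99 RPKM with Lin28a and 17.2 RPKM in control, log2 ratio 0.90) and the ligand Dll3 (0.67). The main ligand Dll1 and the receptor Notch1 had log2 ratios of -0.05 and -0.05, while 6 of 7 effectors were higher by any amount, from -0.10 for Hes5, the lower one, to 0.47 for Nrarp, and Hes1 was at 0.21. Of 15 FGF genes 8 were higher by any amount, with a median log2 ratio of 0.00, and the feedback target Etv5 was at -0.46. Of 18 genes of BMP signalling, 1 was higher past 2-fold. This was Id4, an inhibitor of bHLH factors, at 16.7 RPKM with Lin28a and 7.12 RPKM in control (log2 ratio 1.13). Id1, Id2 and Id3 had smaller log2 ratios of 0.22, 0.49 and 0.39, and RNA-seq at passage 3 had these 4 Id genes at or below -0.11.

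Axon guidance genes were higher in 25 of 31 compared, 4 past 2-fold, and the median log2 ratio was 0.38. Dcc, the netrin receptor, was at 11.7 RPKM with Lin28a and 3.23 RPKM in control (log2 ratio 1.59). The ephrin receptor Epha3 was at 43.04 RPKM with Lin28a and 16.7 RPKM in control (log2 ratio 1.32), and the semaphorin receptor Nrp2 at 11.6 RPKM with Lin28a and 4.62 RPKM in control (log2 ratio 1.16). The other was Slit2. Its receptors Robo1 and Robo2 had log2 ratios of 0.17 and 0.45, and the Dcc ligand Ntn1 had 0.38 at 102 RPKM with Lin28a and 77.8 RPKM in control.

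Homeobox and Pax genes that mark regions of the neural tube split. Of 21 compared, 3 were higher and 1 was lower past 2-fold, and the median log2 ratio was 0.26, and 20 were below 1 RPKM in both libraries. The 3 higher ones, Dbx1, Dlx1 and Dlx2, were below 1 RPKM in control. They were thus compared only through the Lin28a library, and nothing is read from their count. Dbx1, a progenitor gene, was at 3.44 RPKM with Lin28a and 0.306 RPKM in control (log2 ratio 1.77). Its paralog Dbx2 went the other way, at 1.49 RPKM with Lin28a and 4.22 RPKM in control (log2 ratio -1.07), and RNA-seq at passage 3 gave 1.28 for Dbx1 and -1.52 for Dbx2. The distal-less genes Dlx1 and Dlx2, of inhibitory neuron precursors, were at 1.62 and 1.498 on the log2 scale. The antisense RNA Dlx1os was at 5.46 RPKM with Lin28a and 0.497 RPKM in control (log2 ratio 2.11). Whether reads were counted by strand is not stated, so reads of Dlx1os and of Dlx1 cannot be told apart where they overlap. The same holds for the antisense RNA Dlx6os1 (log2 ratio 1.59), whose neighbours Dlx5 and Dlx6 were below 1 RPKM.

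Genes on no list made up 70 of the 117 higher ones. Among the 15 highest were Vat1l, at 7.56 RPKM with Lin28a and 1.16 RPKM in control (log2 ratio 1.99), the immunoglobulin family gene Igdcc3, at 20.7 RPKM with Lin28a and 4.93 RPKM in control (log2 ratio 1.87), Ly6h (1.76), and the vesicular glutamate transporter Slc17a8 (1.63). Among genes at 10 RPKM or more in both libraries, 16 of 5612 were higher past 2-fold (0.285%). Besides Mdk and Epha3, the highest ratios there belonged to Tmeff1, a membrane protein gene (47.3 RPKM with Lin28a, 18.01 RPKM in control), the long non-coding RNA Rmst (27.99 RPKM with Lin28a, 10.8 RPKM in control) and the FGF-binding protein gene Fgfbp3 (33.6 RPKM with Lin28a, 13.3 RPKM in control). Their log2 ratios were 1.35, 1.30 and 1.28. Also high there were Igfbpl1 (1.23), the kinase gene Pak3 (1.19) and the Wnt inhibitor Apcdd1 (1.14).

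Of 33 known targets of let-7 compared, 24 were higher by any amount, 4 past 2-fold and none lower past 2-fold, and the median log2 ratio was 0.17. Hmga2, a chromatin protein of fetal stem cells and a textbook let-7 target, was at 6.13 RPKM in Lin28a polysomes and 1.59 RPKM in control polysomes (log2 ratio 1.46). Its relative Hmga1 was not higher, at 53.6 RPKM with Lin28a and 57.9 RPKM in control. Of the oncofetal RNA-binding proteins, Igf2bp1 was at 10.8 RPKM with Lin28a and 3.55 RPKM in control (log2 ratio 1.37). Igf2bp2 was at 19.5 RPKM with Lin28a and 11.5 RPKM in control (log2 ratio 0.72), and Igf2bp3 was nearly level at 11.4 RPKM with Lin28a and 10.8 RPKM in control.

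The other targets past 2-fold were transcription factor genes. Mycn was at 6.98 RPKM with Lin28a and 2.56 RPKM in control (log2 ratio 1.17), and Plagl2 at 25.8 RPKM with Lin28a and 12.02 RPKM in control (log2 ratio 1.04). The receptor gene Tgfbr1 came next (0.90). At the other end was the cyclin gene Ccnd1, at 56.8 RPKM with Lin28a and 91.3 RPKM in control (log2 ratio -0.68). Hmga2 and Igf2bp1 also stood apart from the neuronal genes at passage 1, where their RNA-seq log2 ratios were 1.62 and 1.21, against 0.15 for Neurog2 and -0.19 for Tubb3. In RNA-seq at passage 3, 30 of the 33 were higher by any amount, with a median of 0.43, and the polysome and RNA-seq ratios are set side by side without a test.

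The machinery of small RNAs differed little. Of 16 genes, 13 were higher by any amount and none past 2-fold, and the median log2 ratio was 0.18. The largest ratios were of the Argonaute gene Ago1 (47.5 RPKM with Lin28a and 31.8 RPKM in control, log2 ratio 0.56) and of Dicer1, itself a let-7 target (12.2 RPKM with Lin28a and 8.66 RPKM in control, log2 ratio 0.45). Zcchc11, which adds uridines to let-7 precursors bound by Lin28a, had a log2 ratio of 0.28. Genes reported elsewhere as translated more with Lin28 also stayed within 2-fold. Of 10, 5 were higher by any amount, with a median log2 ratio of 0.03. They ranged from the growth factor Igf2, at 1.75 RPKM with Lin28a and 0.714 RPKM in control (log2 ratio 0.68), to Ccnd1. Cdk4, a kinase of the cell cycle, was at 321 RPKM with Lin28a and 261 RPKM in control (log2 ratio 0.30).

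Imprinted growth genes were higher in 16 of 18 compared, 4 past 2-fold, and the median log2 ratio was 0.33. Neuronatin, Nnat, a small membrane protein of the developing brain, was the most abundant gene past 2-fold, at 1264 RPKM with Lin28a and 528 RPKM in control (log2 ratio 1.26). Dlk1, Rian and Meg3, neighbours in the same imprinted cluster, had log2 ratios of 1.53, 1.15 and 0.92. The cell cycle inhibitor Cdkn1c was at 14.1 RPKM with Lin28a and 6.43 RPKM in control (log2 ratio 1.02). The non-coding RNA H19 was lower, at 3.72 RPKM with Lin28a and 5.02 RPKM in control.

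Most genes past 2-fold in polysomes differed the same way in RNA-seq at passage 3. Of the 117 higher genes, 110 were higher by any amount there and 71 past 2-fold, with a median RNA-seq log2 ratio of 1.11. Over all genes compared those shares were 49.2% and 1.21%. All 15 lower genes were lower there too, 11 past 2-fold, with a median of -1.24, where 1.17% of all genes were lower past 2-fold. At passage 1, 48 of the 117 were higher by any amount (48.8% of all genes), with a median of -0.04, and 3 were past 2-fold (0.13% of all genes), namely Lin28a, Hmga2 and Igf2bp1. Of the 15 lower genes, 14 were also lower at passage 1 (51% of all genes), and 1 of them, Ramp1, was past 2-fold (0.0895% of all genes).

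**Figure D3:**
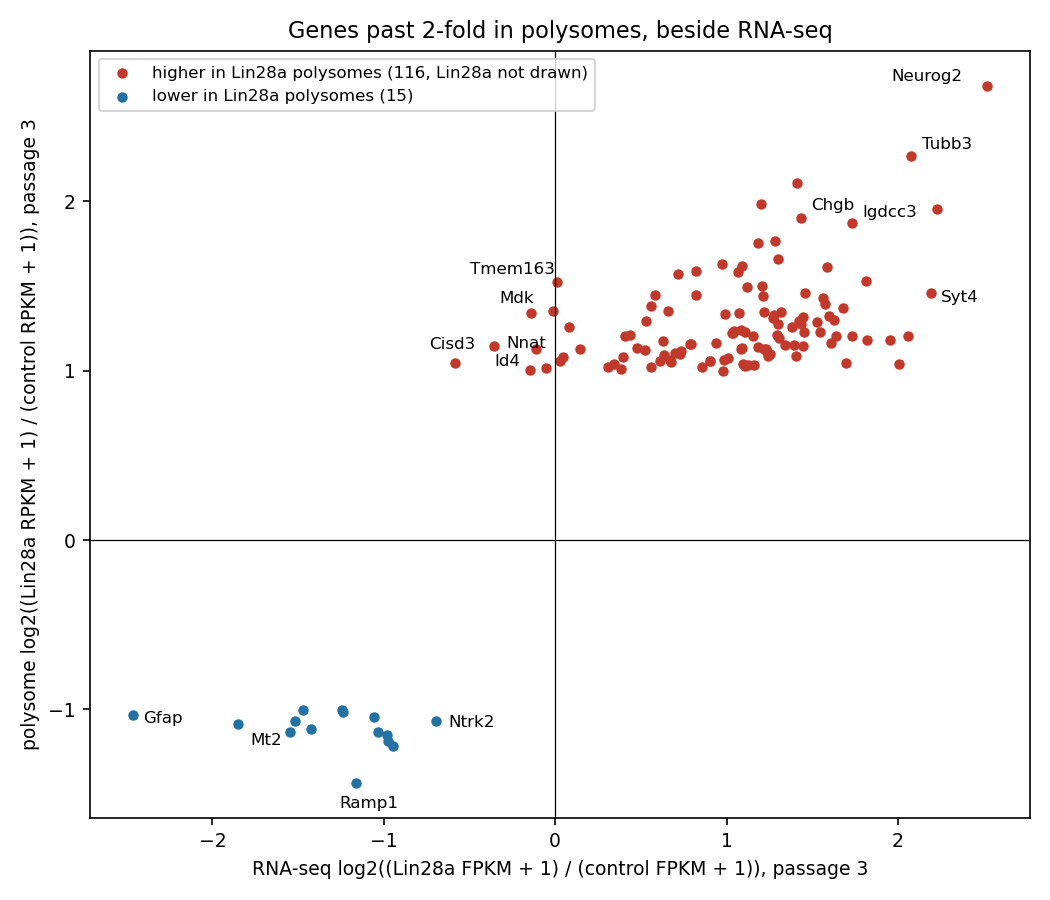
Genes past 2-fold in polysomes: the RNA-seq log2 ratio at passage 3 (horizontal) against the polysome log2 ratio at passage 3 (vertical), both Lin28a over control, with Lin28a itself left out. The 116 higher genes (red) lie mostly at positive RNA-seq ratios, the 15 lower genes (blue) all at negative ones, and Nnat, Mdk, Tmem163 and Id4 lie near an RNA-seq ratio of 0.

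A small set was higher in polysomes and not in RNA-seq. Midkine, Mdk, a secreted growth factor, was at 78.995 RPKM in Lin28a polysomes and 30.3 RPKM in control polysomes (log2 ratio 1.35), while its RNA-seq values were 205 FPKM with Lin28a and 207 FPKM in control. Its relative pleiotrophin, Ptn, was alike in polysomes, at 198 RPKM with Lin28a and 208 RPKM in control. Nnat had 1402 FPKM with Lin28a and 1328 FPKM in control in RNA-seq (log2 ratio 0.08). Id4 had an RNA-seq log2 ratio of -0.11, the zinc transporter gene Tmem163 0.01, the trophoblast glycoprotein gene Tpbg -0.36, and Cisd3, a mitochondrial iron-sulphur protein gene, -0.59. Their polysome log2 ratios were 1.52, 1.15 and 1.05. With 1 library in each group, whether polysomes and RNA-seq differ for these genes was not tested.

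The reverse pattern was also seen in genes short of 2-fold. The chemokine Cxcl1 was lower in polysomes, at 10.6 RPKM with Lin28a and 17.6 RPKM in control, and higher in RNA-seq, at 5.28 FPKM with Lin28a and 1.25 FPKM in control. The growth factor receptor Egfr was at 40.7 RPKM with Lin28a and 62.6 RPKM in control in polysomes, against 78.4 FPKM with Lin28a and 56.2 FPKM in control in RNA-seq.

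The gene with the lowest ratio was Ramp1, a partner of the calcitonin receptor family, at 14.3 RPKM in Lin28a polysomes and 40.2 RPKM in control polysomes (log2 ratio -1.43). It was also lower in RNA-seq at passage 3 (-1.16) and at passage 1 (-1.23), as log2 ratios. Its relative Ramp2 was at 3.93 RPKM with Lin28a and 4.54 RPKM in control (log2 ratio -0.17), with RNA-seq log2 ratios of -0.56 at passage 3 and -0.68 at passage 1. Ramp3 was higher in polysomes, at 1.98 RPKM with Lin28a and 0.539 RPKM in control (log2 ratio 0.95), and its RNA-seq log2 ratios were -0.27 at passage 3 and 0.39 at passage 1. The receptor Calcrl, which the RAMP proteins accompany, was at 13.2 RPKM with Lin28a and 11.1 RPKM in control. The peptide adrenomedullin, Adm, a ligand of this receptor and a gene induced by low oxygen, was at 2.58 RPKM with Lin28a and 6.87 RPKM in control (log2 ratio -1.13).

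The metallothioneins, small proteins that bind zinc and copper, were lower in all 3 members compared, 2 of them past 2-fold, and their median log2 ratio was -1.004. Mt2 was at 48.4 RPKM with Lin28a and 104 RPKM in control (log2 ratio -1.09). Mt1 was at 183 RPKM with Lin28a and 367 RPKM in control (log2 ratio -1.004), and Mt3, the form of the brain, at 196 RPKM with Lin28a and 361 RPKM in control (log2 ratio -0.88). Their RNA-seq log2 ratios at passage 3 were -1.85, -1.47 and -1.67 for Mt2, Mt1 and Mt3, and at passage 1 they were -0.59, -0.76 and -0.91. The genes are short and alike, and how reads shared between them were counted is not stated.

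The promoters of Mt1 and Mt2 are shown because both genes were among the lower ones and metal response elements (MRE) are the known handles of their induction. They run from 250 bases before to 50 after the first listed start of each gene (RefSeq, GRCm38.p6). Any other start was not searched, so cores outside this window are not counted. Capitals mark the MRE core on either strand, either as TGCACNC or, with another middle base, as TGCGCNC. Both lie on the + strand, Mt1 at chr8:94178839-94179138 and Mt2 at chr8:94172368-94172667.
Mt1: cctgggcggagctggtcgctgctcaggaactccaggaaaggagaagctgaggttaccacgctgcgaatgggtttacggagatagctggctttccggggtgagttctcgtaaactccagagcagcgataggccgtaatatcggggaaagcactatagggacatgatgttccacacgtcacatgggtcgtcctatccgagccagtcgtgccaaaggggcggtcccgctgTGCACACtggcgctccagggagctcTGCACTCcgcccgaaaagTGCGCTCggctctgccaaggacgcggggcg
Mt2: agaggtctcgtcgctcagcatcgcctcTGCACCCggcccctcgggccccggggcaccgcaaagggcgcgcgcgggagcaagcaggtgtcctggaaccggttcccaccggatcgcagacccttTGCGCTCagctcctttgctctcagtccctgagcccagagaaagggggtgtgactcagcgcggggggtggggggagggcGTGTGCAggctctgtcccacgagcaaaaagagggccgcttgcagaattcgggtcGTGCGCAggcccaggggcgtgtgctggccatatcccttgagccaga

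Mt1 held 3 such cores, Mt2 4 and Mt3 1 in this window. A core was present in 38.1% of the 9152 promoters of genes compared, and in 4 of the 11 available for genes lower past 2-fold (36.4%), so the core alone does not set the lower genes apart.

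Astroglial genes were lower in 21 of 26 compared, 3 past 2-fold, and the median log2 ratio was -0.27. The intermediate filament gene of astrocytes, Gfap, was at 1.47 RPKM in Lin28a polysomes and 4.06 RPKM in control polysomes (log2 ratio -1.03). The neurotrophin receptor Ntrk2 was at 17.3 RPKM with Lin28a and 37.4 RPKM in control (log2 ratio -1.07), and the integrin Itga7 at 1.22 RPKM with Lin28a and 3.92 RPKM in control (log2 ratio -1.15). Short of 2-fold were the bicarbonate transporter Slc4a4 (-0.69), the water channel Aqp4 (-0.64) and the lipid carrier Apoe (-0.54), as log2 ratios. Mt3, given above with the metallothioneins, is also among the 21. The other 5 members were higher. Id3 was at 317 RPKM with Lin28a and 241 RPKM in control, and Hopx at 138 and 116 RPKM (log2 ratios 0.39 and 0.25). Fgfr3, Cd44 and Glul had log2 ratios of 0.36, 0.14 and 0.04. RNA-seq at passage 3 gave the 26 genes a median of -0.65, with Gfap at -2.46.

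Oligodendrocyte genes were lower in 8 of 13 compared, none past 2-fold, and the median log2 ratio was -0.37. The early factors held the abundant part. Olig1 was at 121 RPKM with Lin28a and 172 RPKM in control (log2 ratio -0.501), and Olig2 at 64.01 RPKM with Lin28a and 99.6 RPKM in control (log2 ratio -0.63). Bcas1, of newly forming oligodendrocytes, was lowest, at 1.32 RPKM with Lin28a and 3.35 RPKM in control (log2 ratio -0.90). Myelin genes were near the bottom of the polysome range. Mbp was at 1.83 RPKM with Lin28a and 1.51 RPKM in control, although RNA-seq at passage 3 listed it at 408 FPKM with Lin28a and 633 FPKM in control. Whether both assays sampled the same cells is not stated, and its part in these values was not tested.

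The remaining genes lower past 2-fold had no common list. The calcium-dependent kinase subunit Camk2b was at 21.3 RPKM with Lin28a and 49.7 RPKM in control (log2 ratio -1.19). The RNA-editing deaminase gene Apobec1 was at 5.77 RPKM with Lin28a and 13.7 RPKM in control (log2 ratio -1.12), and lactoperoxidase, Lpo, at 2.83 RPKM with Lin28a and 7.39 RPKM in control (log2 ratio -1.13). The protease gene Adamts14 (-1.05) and the carbonic anhydrase gene Car3 (-1.01) were close to the line, and the non-coding 2010001M06Rik was at 0.135 RPKM with Lin28a and 1.64 RPKM in control. Among genes at 10 RPKM or more in both libraries 5 were lower past 2-fold (0.0891%): Ramp1, Camk2b, Mt2, Ntrk2 and Mt1.

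**Figure D4:**
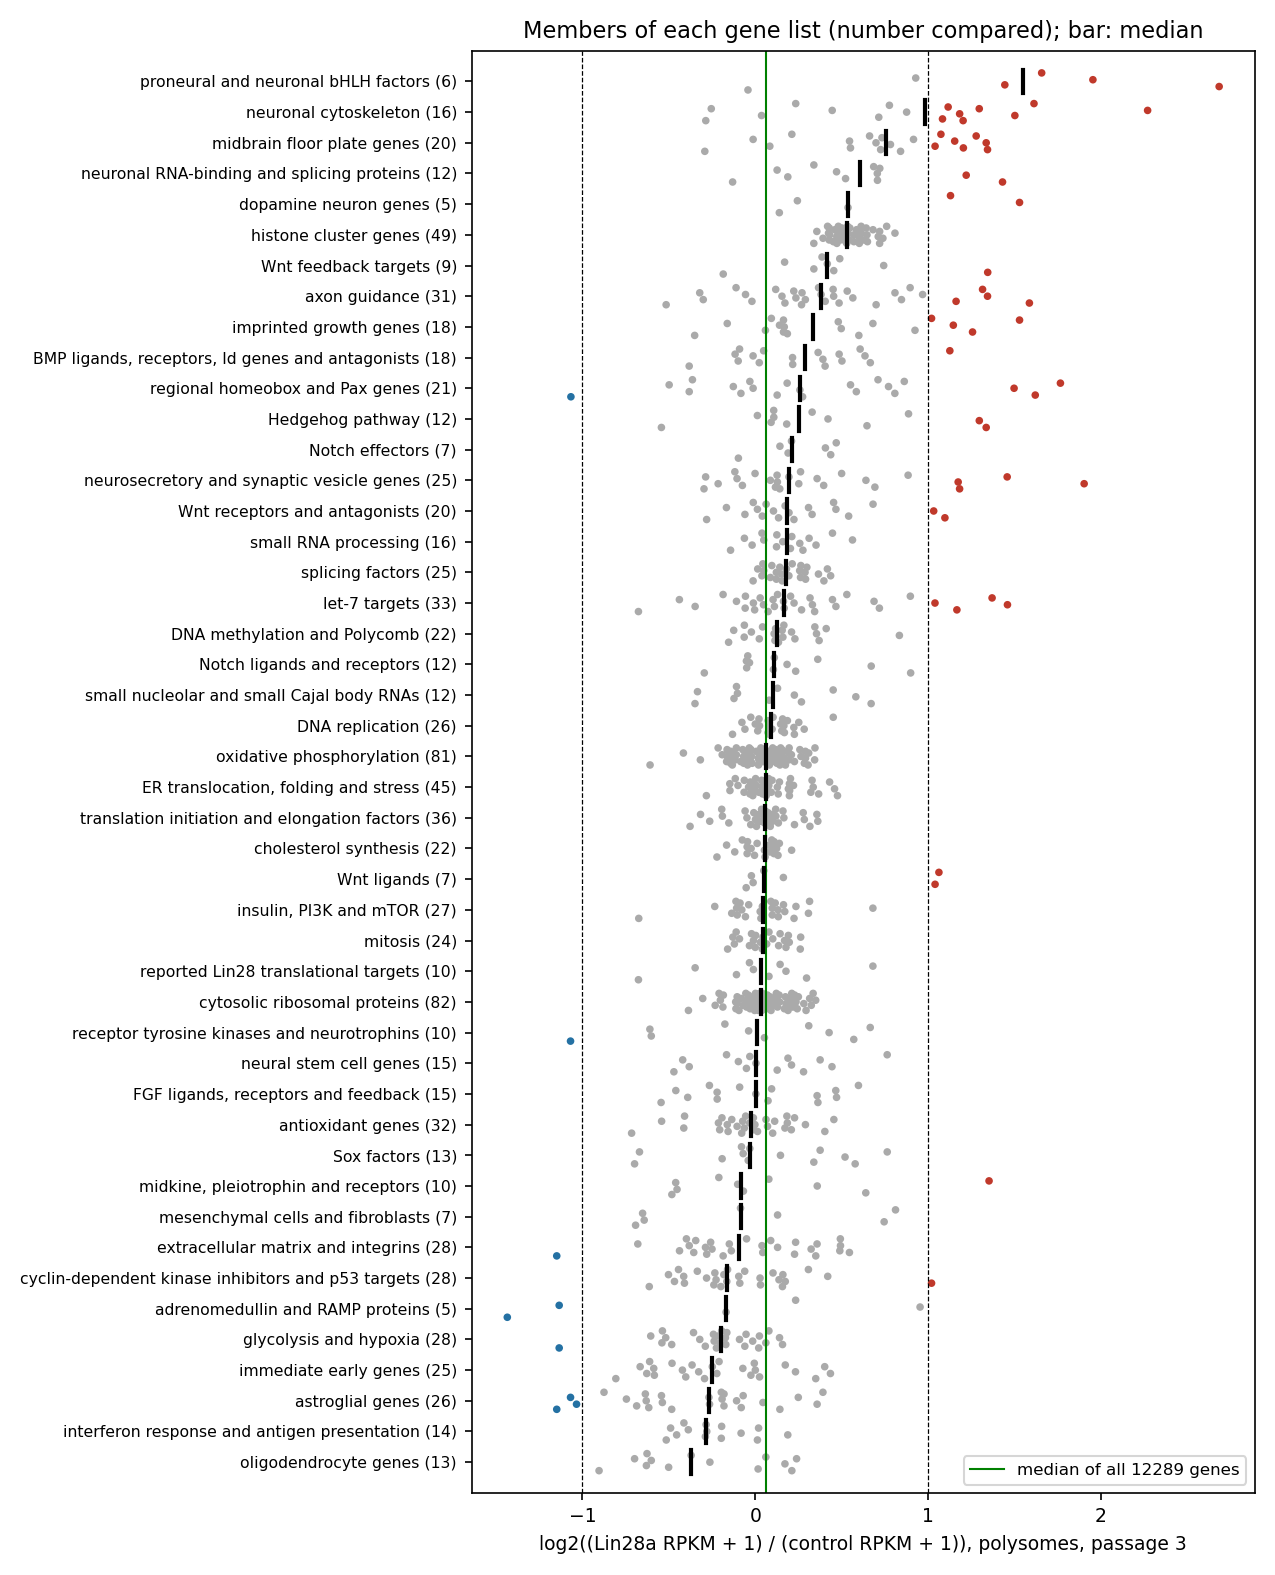
Polysome log2 ratios (horizontal) of the members of each list with at least 5 genes compared, ordered by the list's median (black bar), with the number compared in brackets, dashed lines at 2-fold and the median of all 12289 genes in green. Cytoskeleton and floor plate genes lie to the right, as do the proneural factors, of which 5 of 6 were compared only through the Lin28a library, oligodendrocyte, interferon and astroglial genes to the left, and the lists of protein synthesis lie close to the green line.

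Protein synthesis and growth lists lay near the median of all genes. Of 51 lists, 28 held no gene past 2-fold. Cytosolic ribosomal proteins had a median log2 ratio of 0.03 over 82 genes, with the extremes at -0.39 and 0.35. Translation factors had 0.06 over 36 genes. The lowest of these was the poly(A)-binding protein gene Pabpc1, at 122 RPKM with Lin28a and 158 RPKM in control, and the elongation factor Eef2 was at 843 RPKM with Lin28a and 1049.8 RPKM in control (log2 ratios -0.38 and -0.32). Oxidative phosphorylation had 0.06 over 81 genes, and endoplasmic reticulum translocation and folding 0.06 over 45. Genes of the insulin and mTOR pathway had 0.05 over 27, with the binding protein gene Igfbp3 lowest (87.98 RPKM with Lin28a, 141 RPKM in control). Splicing factors were higher by any amount in 24 of 25, with small log2 ratios (median 0.18, highest 0.44 for Srsf7).

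Cell cycle lists held 1 gene past 2-fold, Cdkn1c. Of 26 DNA replication genes 22 were higher by any amount, with a median log2 ratio of 0.09, and the helicase subunit Mcm2 was at 15.2 RPKM with Lin28a and 12.6 RPKM in control. Of 24 mitosis genes 15 were higher by any amount, with a median of 0.04. In RNA-seq at passage 3 all 24 mitosis genes were higher, with a median of 0.73. For example, the kinase gene Plk1 had a polysome log2 ratio of 0.07 and an RNA-seq log2 ratio of 0.89, and the proliferation marker Mki67 had -0.16 and 0.76, in that order. Among 28 cell cycle inhibitors and p53 targets 18 were lower (median log2 ratio -0.16). The death receptor Fas was lowest (3.804 RPKM with Lin28a, 6.35 RPKM in control), and Cdkn2c, Cdkn2a and Cdkn2b had log2 ratios of -0.502, -0.47 and -0.41.

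Among 28 glycolysis and hypoxia genes 22 were lower (median -0.20), among them Vegfa, at 47.04 RPKM with Lin28a and 67.8 RPKM in control (log2 ratio -0.52). Interferon and antigen presentation genes were lower in 11 of 14 (median -0.28, none past 2-fold). Immediate early genes, which respond within minutes to handling, were lower in 18 of 25 (median -0.25, none past 2-fold). Fos was at 40.97 RPKM with Lin28a and 72.4 RPKM in control (log2 ratio -0.81). These handling genes move with the comparison, and their part in the other results was not tested.

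Histone genes of the replication-dependent clusters were higher by any amount in all 49 members, although none was past 2-fold. Their messages end in a stem-loop and not in a poly(A) tail, and they are made in S phase. The log2 ratios ran from 0.34 to 0.81 with a median of 0.53. Summed over the list there were 22816 RPKM with Lin28a and 15999 RPKM in control, a ratio of 1.43, or 7.94% and 5.96% of all RPKM of the library, Lin28a and control. The median log2 ratio was 0.55 for 5 H1 genes, 0.61 for 10 H2A genes, 0.43 for 13 H2B genes, 0.61 for 10 H3 genes and 0.51 for 11 H4 genes. The most abundant was Hist1h4d, at 2247 RPKM with Lin28a and 1681 RPKM in control, and the highest ratio was that of the linker histone gene Hist1h1a, at 269 RPKM with Lin28a and 153 RPKM in control (log2 ratio 0.81).

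**Figure D5:**
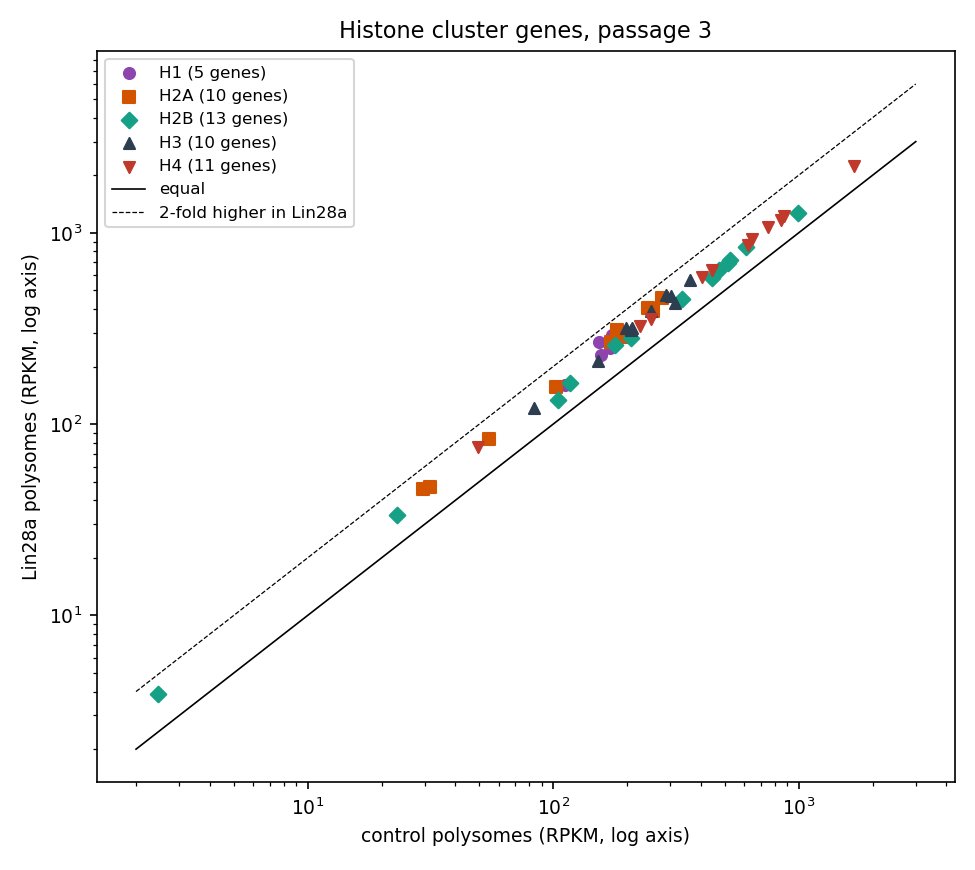
Levels of 49 histone cluster genes in control polysomes (horizontal) and Lin28a polysomes (vertical), RPKM on log axes, by histone class. All points lie between the solid line of equal levels and the dashed line of 2-fold higher with Lin28a.

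Many histone genes are near-identical copies, so their reads may be split between them and the 49 ratios are not independent. RNA-seq at passage 3 held few reads of these genes, with a sum of 156 FPKM with Lin28a and 179 FPKM in control. The labels call the polysome libraries poly(A)-selected, while RNAs without a poly(A) tail were among the most abundant in them. Rmrp, the RNA of the RNase MRP enzyme, was at 14748 RPKM with Lin28a and 8850.0 RPKM in control (log2 ratio 0.74). Such RNAs take a share of the reads that differs between the libraries, and scaling on the sum without them gave 107 genes higher and 16 lower past 2-fold. The small nucleolar RNAs did not follow the histones, with 7 of 12 higher by any amount and a median log2 ratio of 0.11. How far the way the libraries were made bears on the histone ratios was not tested.

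Of the markers of cells from outside the neural tube, those of microglia and blood were near 0, and some mesenchymal ones were not. None of the 13 microglial markers reached 1 RPKM, and their sum was 1.02 RPKM with Lin28a and 0.912 RPKM in control, with Itgam, Cx3cr1 and C1qa at the floor in both. The erythroid markers found in the files were also below 1 RPKM. Of 10 endothelial markers, 1 was compared, Kdr (3.59 RPKM with Lin28a, 3.03 RPKM in control), and Cdh5 and Cldn5 were below 0.1 RPKM. Mesenchymal markers summed to 43.5 RPKM with Lin28a and 47.5 RPKM in control over 13 genes, with 7 compared and none past 2-fold. The proteoglycan Dcn was higher (13.7 RPKM with Lin28a, 7.39 RPKM in control) and the contractile genes Acta2 and Tagln were lower (log2 ratios -0.64 and -0.65). Neural crest markers summed to 7.06 RPKM with Lin28a and 9.96 RPKM in control over 9 genes.

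The depth behind these values could be read from genes whose RNA is a single exon. Multiplied by gene length, their values stepped in whole reads at a depth of about 44200000 reads for Lin28a and 42500000 for control. At that depth 237 of 941 short genes came out whole (within 0.05 of a whole number) in both libraries, where random fractions would give 9.41. The depth was itself chosen to bring the most short genes to whole numbers. The figure of 9.41 does not allow for that search, so the contrast is not a test. An RPKM of 1 on a transcript of 1 kilobase thus stands for about 44.2 reads with Lin28a and 42.5 in control. Counting error can be shown for single-exon genes. The Wnt receptor gene Fzd8 had 282 reads with Lin28a and 157 in control, a depth-scaled ratio of 1.73 (95% exact interval 1.42 to 2.11). The BMP inhibitor gene Nog had 143 reads with Lin28a and 84 in control (1.64, interval 1.24 to 2.17), and the stem cell gene Sox3 had 363 reads with Lin28a and 374 in control (0.934, interval 0.806 to 1.08). Fzd8 and Nog thus differed by more than counting error and Sox3 did not, while the spread between cultures is unknown for all 3.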

How the data were processed

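For polysomes the authors deposited 1 RPKM value per RefSeq gene, a unit taken from the values, since single-exon genes step in whole reads, and genes without reads are listed at a floor. For RNA-seq the deposited unit is FPKM. Bowtie 1.0.0, TopHat2 2.0.6, Cufflinks 2.1.1 and build mm9 are listed per the submitters' processing notes, with no step named. For small RNA, the deposited files hold a raw count of reads per mature microRNA. The labels call the polysome libraries poly(A)-selected, while their extraction text names a total RNA kit.

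Genes at 1 RPKM or more in either polysome library were compared on the scale log2(RPKM + 1), and counted past 2-fold. With 1 library per group, no test was run. RNA-seq ratios used the same scale. Depth was read from single-exon genes with GRCm38 gene lengths, and exact binomial intervals at 95% cover counting error only. Of the 17919 symbols, 16656 matched the GRCm38.p6 gene table and 13024 had a promoter. That table was used for names, lengths and promoters, and the sequences carry its coordinates.

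Named were Lin28a and Lin28b, the 15 highest and 15 lowest ratios, the 10 highest and 10 lowest among genes at 10 RPKM or more in both libraries, up to 6 members of each list and small families. Some of these genes are not reported here. Genes named for contrast outside this rule were chosen after their values were seen. The members, lists and tests were chosen with earlier results of these data known. Alternatives changed the pseudocount (0.1, 5), the filter and the scaling. The scripts ran under Python 3.11.15, with scipy 1.17.1, pandas 2.3.3, matplotlib 3.10.9 and numpy 2.4.6, and the counting was tested on simulated data.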

Additional observations from a re-analysis of the deposited data

How the results depend on the processing

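The number of genes past 2-fold and some list medians depended on the pseudocount and on the filter, while none of the 292 named genes changed direction under the 9 alternatives. With a pseudocount of 0.1 there were 249 higher and 61 lower genes, and 226 of the 249 were also higher in RNA-seq at passage 3 (110 of 117 as reported). With a pseudocount of 5 there were 20 higher and 3 lower, 19 of the 20 higher in RNA-seq, and 23 named genes past 2-fold (74 as reported). Among genes at 10 RPKM or more in both libraries there were 16 higher and 5 lower, 15 of the 16 higher in RNA-seq, and 17 named genes past 2-fold. With 5 RPKM or more in either library, 73 higher genes were also higher in RNA-seq, and with 1 RPKM or more in both, 72. Centring on the median ratio gave 96 higher and 19 lower genes, and upper quartile scaling 101 and 18, so that the share of calls that were higher was 83.5% and 84.9%, against 88.6% as reported. With 1 RPKM or more in both libraries, or 10 RPKM or more in both, 1 member of the proneural list was left and no list median is given. Across the alternatives 53 list medians moved and 371 stayed, with a tolerance of 0.1 on the log2 scale. With a pseudocount of 5, 12 moved and 36 stayed. At 10 RPKM or more in both libraries 11 moved and 32 stayed, and without a filter 10 moved and 38 stayed. Under each change of scaling all 48 stayed. No paired analysis was possible because each group held 1 library. Low levels limit the precision of many calls, as 63 of the 117 higher genes were under 3 RPKM in control.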

Other observations

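Several smaller groups of genes were not described above. DNA methylation and Polycomb genes were higher by any amount in 17 of 22 with Lin28a polysomes, none past 2-fold (median log2 ratio 0.13), led by the Polycomb gene Cbx2 at 15.9 RPKM with Lin28a and 8.496 RPKM in control. Of 13 Sox factors 6 were higher by any amount. Sox11, a factor of newborn neurons, was at 64.7 RPKM with Lin28a and 37.7 RPKM in control (log2 ratio 0.76), and Sox8, a glial gene, at 29.1 RPKM with Lin28a and 46.9 RPKM in control (log2 ratio -0.67). Antioxidant genes were higher in 13 of 32, none past 2-fold. The peroxiredoxins Prdx2 and Prdx4 had log2 ratios of 0.40 and 0.45, and the secreted peroxidase Gpx3 had -0.72.

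Cholesterol synthesis genes lay between -0.22 and 0.21 on the log2 scale over 22 genes. Matrix genes and integrins were higher in 13 of 28, with Lama2, a laminin chain, at 1.97 RPKM with Lin28a and 3.76 RPKM in control. Among receptor tyrosine kinases the GDNF co-receptor gene Gfra1 was at 40.2 RPKM with Lin28a and 24.96 RPKM in control (log2 ratio 0.67). Pdgfra, of oligodendrocyte precursors, was at 1.11 RPKM with Lin28a and 2.21 RPKM in control (log2 ratio -0.60). The nuclear RNA Malat1 was at 614 RPKM with Lin28a and 968 RPKM in control, and the thymosin gene Tmsb4x at 3046 RPKM with Lin28a and 4721 RPKM in control. Malat1 and Tmsb4x were chosen after their values were seen.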
